A study of Zea mays with 9 samples.

Results

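Alpha zeins are the main storage proteins of the maize kernel. The 8 gene rows described here were supplied as a list of alpha zeins of the 19 and 22 kDa classes. They were chosen by their level in B73, as rows with a mean of at least 100 CPM (a row's counts as a share of all gene counts of its library, scaled to a total of 1000000) over the 3 B73 libraries. All 8 listed rows met that minimum, out of 46430 gene identifiers in the count files, and all 8 were among the 23529 genes with enough counts to be tested. The B73 means ran from 182 CPM for Zm00001d048808 to 37719 CPM for Zm00001d019156, and no listed row lay under the minimum. Zm00001d048808 was the row just inside it, and the next was Zm00001d019155 at 4567 CPM. These B73 levels describe the choice of the rows and are no finding. The same B73 libraries stand in every comparison with B73 below, and the minimum removed no listed row. The naming as alpha zeins was taken as supplied, and the rows are not divided into 19 and 22 kDa members here.

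The libraries held poly(A) RNA of endosperm dissected 19 days after pollination from self-pollinated, field-grown plants. Of the 9 libraries, 3 came from thk1-iso15 (-/-) endosperm, 3 from thk1-iso17 (-/-) endosperm and 3 from WT endosperm, which the sample titles name B73. All were in the B73 inbred background, thk1-iso15 and thk1-iso17 are mutant alleles of thk1 (thick aleurone1), and no other allele or treatment is given. The number of plants or kernels behind a replicate is not given in the sources used here, so the p-values measure the spread between these libraries.

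Alpha zeins are made in the starchy endosperm on the rough endoplasmic reticulum and packed into protein bodies, where they fill the core inside a shell of other zeins. They are encoded by a multigene family with many closely related, often tandemly arranged copies, and transcription factors of the endosperm such as Opaque2 and the prolamin-box binding factor activate zein genes. Their transcripts are among the most abundant of the filling endosperm. The gene thk1 takes its name from a thickened aleurone in its mutants. The aleurone is the epidermis-like outer layer of the endosperm, and it stores oil and globulins where the starchy cells beneath it store starch and zein. In bulk endosperm RNA, fewer cells that make zein and less zein RNA per cell cannot be told apart.

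Gene counts per library ran from 21871601 to 76651742. Near-identical gene copies share reads, and the files count reads that were not uniquely aligned on a summary line apart from the gene rows, so a row below can miss reads that fit several copies. Entries not uniquely aligned made up 16.8%, 19.5% and 27.0% of the entries in thk1-iso15 replicates 1, 2 and 3, 17.2%, 20.6% and 18.0% in thk1-iso17, and 19.2%, 22.6% and 20.3% in B73. thk1-iso15 replicate 3 stood apart with the highest of these shares and the lowest share of gene counts (52.9%), and thk1-iso17 replicate 3 with 8.27% of entries not aligned, against at most 2.54% in the others. Their part in the results was not tested, and values without them are given where a call or a value moved.

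Together the 8 rows took 8.02%, 9.22% and 14.2% of gene counts in thk1-iso15 replicates 1, 2 and 3. They took 6.97%, 9.31% and 7.11% in thk1-iso17, and 9.10%, 13.7% and 11.6% in B73. The exact (Clopper-Pearson) 95% intervals of these shares were at most 0.0230 percentage points wide and cover counting error only, so the differences between replicates lay far outside counting error. The highest library was thk1-iso15 replicate 3 and the lowest was thk1-iso17 replicate 1. Both mutant groups overlapped B73 in this share. Group means were 10.5% ± 3.30 in thk1-iso15, 7.79% ± 1.31 in thk1-iso17 and 11.4% ± 2.28 in B73 (SD, n = 3 each). On the log2 scale the sum differed from B73 by -0.15 for thk1-iso15 and by -0.55 for thk1-iso17, beside a pooled SD between replicates of 0.33. No test is given for the sum, because the rows were chosen with results of these data known. Without thk1-iso15 replicate 3 the difference of thk1-iso15 was -0.39, and without thk1-iso15 replicate 1 it was 0.02. Without B73 replicate 2 the differences were -0.01 for thk1-iso15 and -0.41 for thk1-iso17. Without B73 replicate 1 they were -0.30 and -0.70. Leaving out thk1-iso17 replicate 1, 2 or 3 gave -0.47, -0.68 or -0.49 for thk1-iso17.

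**Figure D1:**
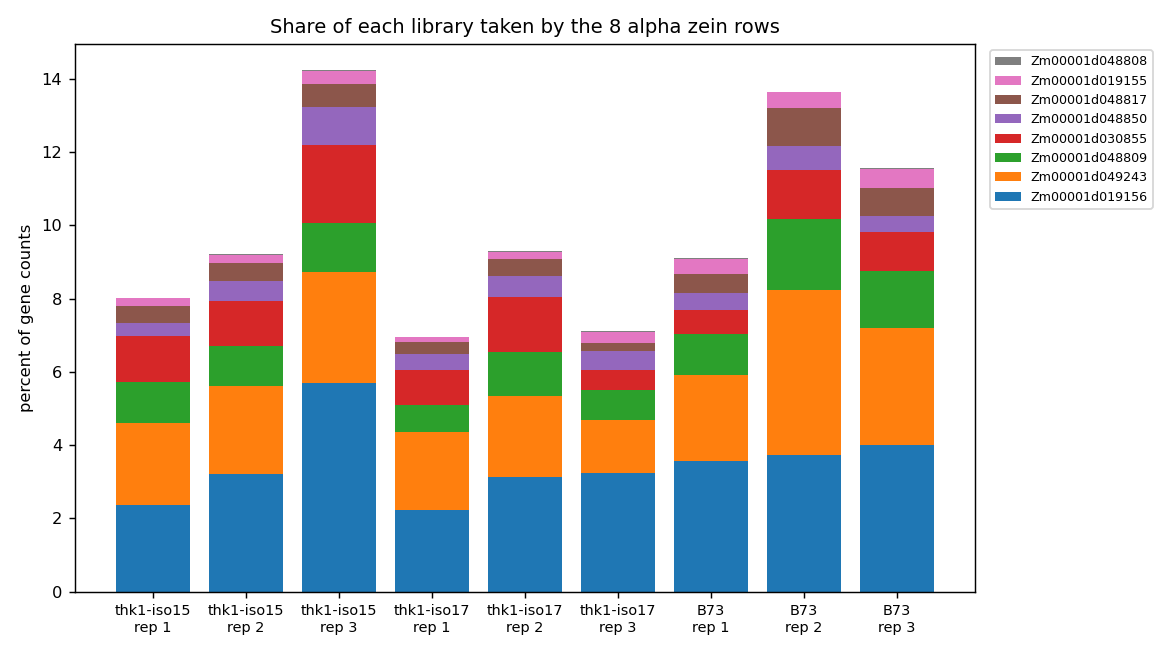
Stacked bars give the percent of gene counts taken by each of the 8 alpha zein rows in every library of thk1-iso15, thk1-iso17 and B73. The whole bar is highest in thk1-iso15 replicate 3 at 14.2% and lowest in thk1-iso17 replicate 1 at 6.97%, and Zm00001d019156 and Zm00001d049243 take the largest pieces.

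The share of a library depends on what else the library holds. TMM scaling, which sets most genes level between libraries, gave factors from 0.946 to 1.21 in the 6 mutant libraries and from 0.785 to 0.926 in the 3 B73 libraries. On this scale the sum was 73023, 88441 and 150527 CPM in thk1-iso15, 59359, 90254 and 58639 CPM in thk1-iso17, and 105368, 174064 and 125001 CPM in B73. All 3 thk1-iso17 libraries then lay below all 3 B73 libraries, and the thk1-iso15 libraries overlapped B73 through replicate 3. The log2 differences of the sum became -0.41 and -0.96. This scaling of the sum was not planned and was chosen after the data were seen. Single rows below are given as TMM-scaled CPM, the scale of the test.

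In thk1-iso17 endosperm, 4 of the 8 alpha zein rows were lower than in B73 and none was higher (edgeR quasi-likelihood test, Benjamini-Hochberg adjusted p under 0.05 over 23529 genes). Of all genes tested, 6.29% were lower by the same rule, and of the 935 genes with at least 100 CPM in B73, called abundant below, 24.3% were. The 4 rows were Zm00001d048817, Zm00001d019155, Zm00001d049243 and Zm00001d048809, and they stood at between 33.1% and 45.4% of their B73 level. All 8 fitted fold changes were below 0 on the log2 scale, with a median of -0.97, against -0.29 for the abundant genes and 0.02 for all genes. Values below 0 were found in 48.1% of all genes tested and 78.8% of the abundant genes.

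Zm00001d048817 had 2788, 4448 and 1869.8 CPM in thk1-iso17, against 5978, 13299.6 and 8256 CPM in B73. The groups did not overlap, and replicate 2 was the highest in each. It fell by 1.60 on the log2 scale (SE 0.36, edgeR adjusted p = 0.0178). Zm00001d019155 had 1103, 1982 and 2419.9 CPM in thk1-iso17, against 4892, 5473 and 5602 CPM in B73. All thk1-iso17 libraries lay below all B73 libraries. Its B73 replicates were close together, with the highest 1.15 times the lowest, while those of thk1-iso17 spread over 2.19 times. It fell by 1.54 on the log2 scale (SE 0.32, edgeR adjusted p = 0.0128).

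Zm00001d049243 had 17946, 21374 and 11882 CPM in thk1-iso17, against 27072, 57604 and 34369 CPM in B73. Each thk1-iso17 library lay below each B73 library, and the B73 mean leaned on replicate 2. It fell by 1.22 on the log2 scale (SE 0.34, edgeR adjusted p = 0.0388). Zm00001d048809 had 6353, 11550.3 and 6798 CPM in thk1-iso17, against 12938, 24602 and 16814 CPM in B73. Its groups did not overlap on this scale, though thk1-iso17 replicate 2 came near B73 replicate 1, and per total gene counts they overlapped. It fell by 1.14 on the log2 scale (SE 0.31, edgeR adjusted p = 0.0356).

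The count of 4 changed when single libraries were left out. It was 1 without B73 replicate 2 and 1 without thk1-iso17 replicate 1, with Zm00001d019155 the row that still passed in both cases. It was 2 without B73 replicate 3 and 2 without thk1-iso17 replicate 3, and 2 when only these 2 groups were fitted. The calls over all genes were fewer too, at 1754 without B73 replicate 2, 1176 without thk1-iso17 replicate 1 and 1534 without B73 replicate 3, against 3352 with all libraries, but were 3946 without thk1-iso17 replicate 3. Without thk1-iso17 replicate 1 the log2 fold changes of Zm00001d048817, Zm00001d049243 and Zm00001d048809 were -1.54, -1.26 and -0.98, and without B73 replicate 2 they were -1.22, -0.84 and -0.85. Without B73 replicate 3 the 2 rows that no longer passed, Zm00001d049243 and Zm00001d048809, were at -1.31 and -1.19, and without thk1-iso17 replicate 3 the same 2 were at -1.02 and -1.03. Zm00001d019155 passed under all 20 alternatives run for it in this comparison, Zm00001d048817 under 18, Zm00001d048809 under 15 and Zm00001d049243 under 13.

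The other 4 rows did not pass in thk1-iso17. Zm00001d019156, which took the most reads of the 8 rows, had 19124, 30424 and 26759 CPM in thk1-iso17, against 41470.3, 47448 and 43356 CPM in B73. All 3 thk1-iso17 libraries lay below all 3 B73 libraries, but the fitted log2 fold change of -0.79 (SE 0.36) had an edgeR adjusted p of 0.160. By DESeq2 the adjusted p was 0.0484. Non-overlap of this kind held for 5 of the 8 rows, for 17.4% of all genes tested and for 45.7% of the abundant genes. Zm00001d030855 ranged from 4518 to 14594 CPM in thk1-iso17 and from 7639.5 to 17257 CPM in B73. Zm00001d048850 ranged from 3763 to 5671 CPM in thk1-iso17 and from 4823 to 8083 CPM in B73. Zm00001d048808, the row nearest to the minimum, ranged from 86.8 to 211 CPM in thk1-iso17 and from 139 to 297 CPM in B73. These 3 rows overlapped between the groups, with log2 fold changes of -0.42, -0.41 and -0.61 and edgeR adjusted p of 0.562, 0.527 and 0.351.

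**Figure D2:**
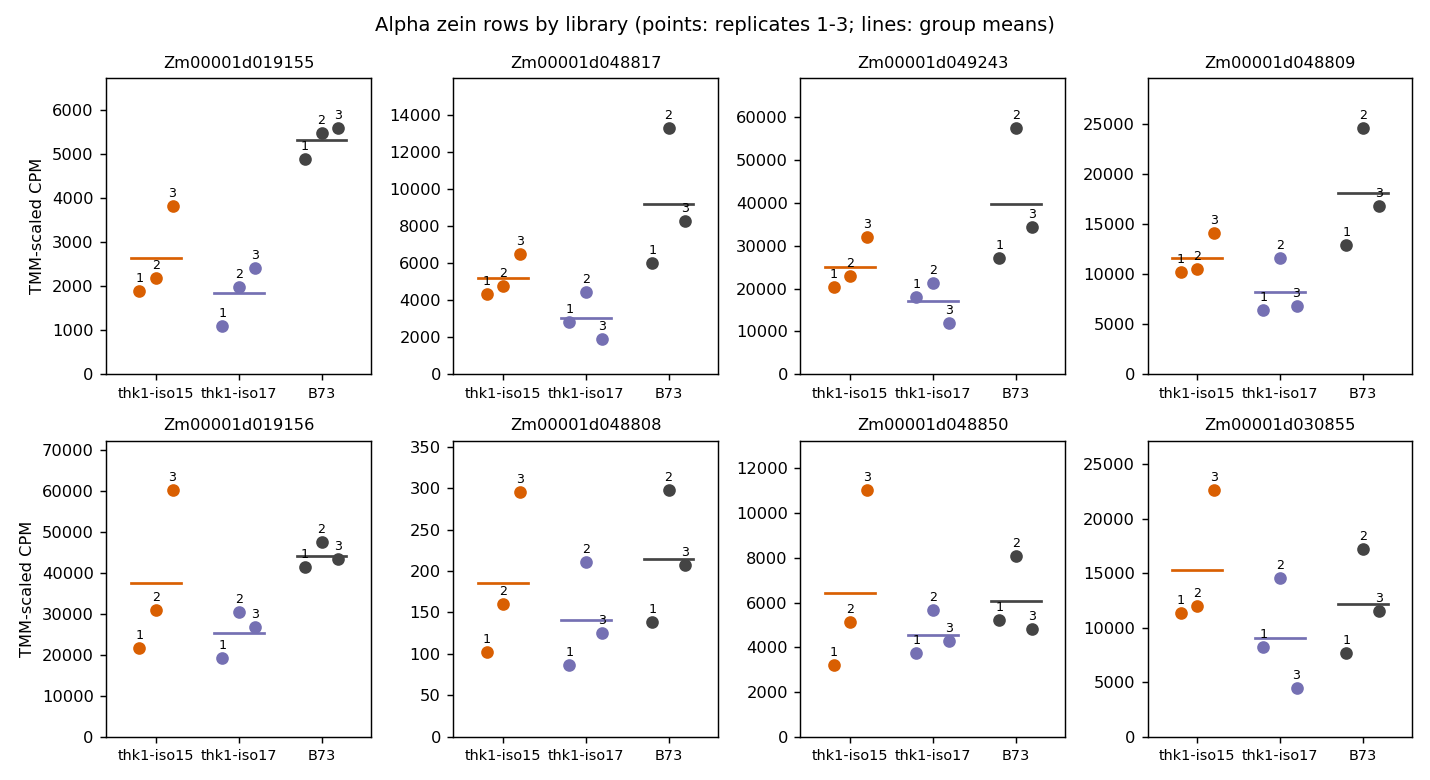
Points give the TMM-scaled CPM of each of the 8 alpha zein rows in every library, numbered by replicate, and lines give the group means, with a separate linear axis for each row. Zm00001d019155 is the row in which all 6 mutant libraries lie below all 3 B73 libraries. The highest of its group is thk1-iso15 replicate 3 in every row, and replicate 2 in 7 rows each for thk1-iso17 and B73.

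In thk1-iso15 endosperm, none of the 8 rows passed the edgeR test against B73. Of all genes tested 6.82% were lower by this rule, and of the abundant genes 19.7% were. By unadjusted p under 0.05 it was 2 of the 8, against 32.2% of all genes and 42.7% of the abundant genes in either direction. DESeq2, which fits counts, and voom, which fits log2 CPM, were run as alternatives. By these 1 row was lower in each. DESeq2 called 8.78% of the genes with an adjusted p lower, and voom 5.72% of all genes tested. Zm00001d019155 came nearest, with 1894, 2196 and 3827 CPM in thk1-iso15 against 4892, 5473 and 5602 CPM in B73. It was the 1 row of 8 in which the libraries of thk1-iso15 all lay below those of B73, as they did in 18.5% of all genes and 39.4% of the abundant genes. Its fitted log2 value was -1.01 (SE 0.32) with an edgeR adjusted p of 0.0540, and DESeq2 gave 0.00625 and voom 0.0453. The row passed under 8 of 20 alternatives. Among them were the fits without thk1-iso15 replicate 3, thk1-iso17 replicate 1 or thk1-iso17 replicate 3, at edgeR adjusted p of 0.0181, 0.0389 and 0.0409. Without any 1 B73 library, or without thk1-iso15 replicate 1 or 2, the edgeR adjusted p was 0.103 to 0.167.

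The remaining 7 rows overlapped B73, whose values are given above. Zm00001d048817 had 4321, 4730.4 and 6475 CPM in thk1-iso15, which the fit put at -0.83 against B73 on the log2 scale (SE 0.36, edgeR adjusted p = 0.139). Zm00001d048809 had 10146, 10488 and 14130.1 CPM, at -0.64 against B73 (SE 0.31, edgeR adjusted p = 0.180). Zm00001d049243 had 20371, 22872 and 32031 CPM, at -0.66 against B73 (SE 0.34, edgeR adjusted p = 0.207). In these 3 rows replicates 1 and 2 of thk1-iso15 lay below every B73 library and replicate 3 did not.

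Zm00001d019156 had 21609, 30885 and 60163 CPM in thk1-iso15, so that its lowest and highest libraries lay on either side of all 3 B73 libraries. Zm00001d030855 had 11377, 11978 and 22592 CPM, Zm00001d048850 had 3203, 5130.0 and 11014 CPM, and Zm00001d048808 had 102, 160.5 and 295 CPM in thk1-iso15. The log2 fold changes of these 4 rows were -0.23, 0.33, 0.09 and -0.21, with edgeR adjusted p of 0.694, 0.643, 0.898 and 0.768. In B73, replicate 2 was the highest of its group in 7 of the 8 rows and replicate 1 the lowest in 7. In thk1-iso17, replicate 2 was the highest in 7 and replicate 1 the lowest in 5. In thk1-iso15, replicate 3 was the highest in all 8 rows and replicate 1 the lowest in all 8. The median log2 fold change of the 8 rows was -0.44, against -0.21 for the abundant genes and 0.01 for all genes. Without replicate 3 it was -0.78, all 8 values were below 0, and Zm00001d019155 was the 1 row that passed. In that fit 1693 of 24177 genes tested were lower, and the median of all genes was 0.00394. Without replicate 1 the median of the 8 rows was -0.24, 4 values were below 0 and none passed. In that fit 828 of 24055 genes tested were lower, and the median of all genes was 0.0169. The share of all genes with values below 0 in these fits is not given here.

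**Figure D3:**
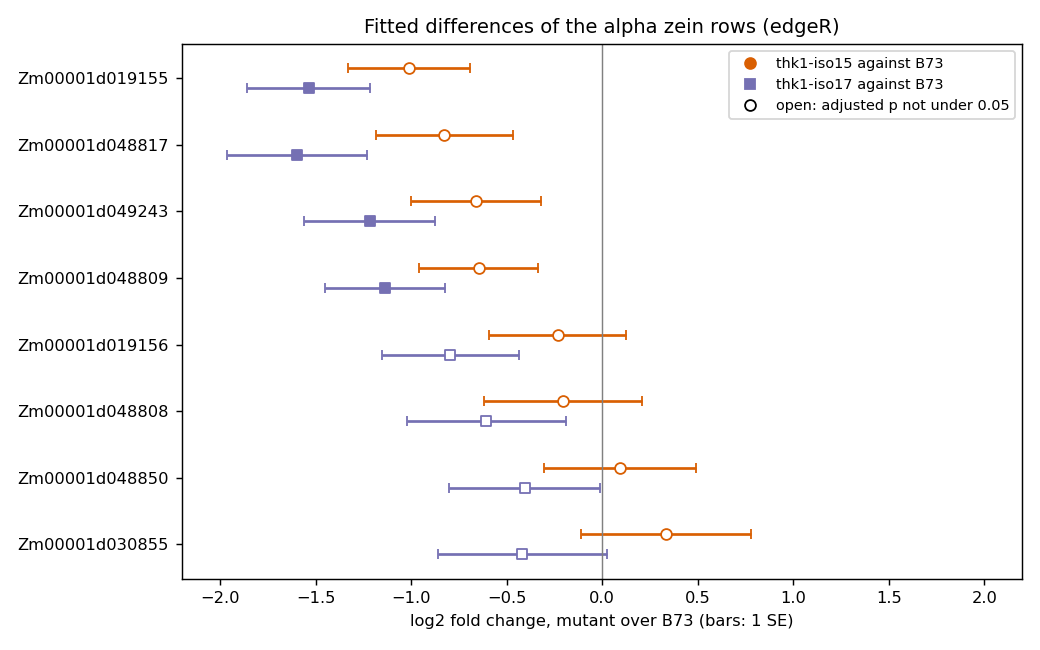
Log2 fold changes of the 8 alpha zein rows from the edgeR fit, thk1-iso15 over B73 (circles) and thk1-iso17 over B73 (squares), with bars of 1 SE. Filled symbols passed at an adjusted p under 0.05: 4 rows in thk1-iso17 and none in thk1-iso15, and the rows run from Zm00001d019155 at the top to Zm00001d030855 at the bottom by their mean over both alleles.

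With the mean of both alleles set against B73, 4 rows were lower and none higher, where 10% of all genes and 30.8% of the abundant genes were lower. Zm00001d019155 was the row in which all 6 mutant libraries lay below all 3 B73 libraries, a pattern held by 11.7% of all genes and 31.8% of the abundant genes. It fell by 1.27 on the log2 scale (SE 0.26, edgeR adjusted p = 0.00814) and passed under all 19 alternatives. Zm00001d048817 fell by 1.21 (SE 0.30, edgeR adjusted p = 0.0169) and passed under 18. Zm00001d049243 fell by 0.94 (SE 0.29, edgeR adjusted p = 0.0392) and Zm00001d048809 by 0.89 (SE 0.26, edgeR adjusted p = 0.0341), and these passed under 11 and 12 of the 19. The count of 4 was 1 without B73 replicate 2, where 5.95% of all genes were lower. It was 2 without B73 replicate 3, thk1-iso15 replicate 1 or 2, or thk1-iso17 replicate 1 or 3. In the order named, 4.78%, 8.08%, 7.16%, 6.50% and 12.0% of all genes were lower in these fits. In these 5 fits with a count of 2, the rows that no longer passed, Zm00001d049243 and Zm00001d048809, kept log2 fold changes of -0.85 to -1.03 and -0.81 to -0.94. Without thk1-iso15 replicate 3 the count was 5, with Zm00001d019156 added at -0.77 (edgeR adjusted p = 0.0371, against 0.250 with all libraries). Of all genes, 10.9% were lower in that fit. With libraries scaled by total gene counts alone the count was 2, where 2.84% of all genes were lower. This comparison and those of the single alleles use the same 3 B73 libraries.

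Between the alleles, none of the 8 rows differed by the edgeR test of thk1-iso17 against thk1-iso15, and none at an unadjusted p under 0.05, by DESeq2 or by voom. Of all genes tested, 0.111% differed by edgeR, 6.88% at an unadjusted p under 0.05 and 0.115% by voom. By DESeq2, 0.762% of the genes with an adjusted p differed. Fitted values below 0 were found in 47.2% of all genes tested and 66.8% of the abundant genes, whose median was -0.08. All 8 rows had a fitted value below 0, from -0.77 for Zm00001d048817 to -0.40 for Zm00001d048808, with SE between 0.31 and 0.45 and edgeR adjusted p between 0.729 and 0.897. A row that passed against B73 in 1 allele alone is therefore not shown to respond differently in the other. Without thk1-iso15 replicate 3 the median of the 8 rows was -0.24, against -0.54 with all libraries.

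The makeup of the alpha zein reads can be compared without any scaling of libraries, as the share of each row within the 8. The 8 shares add up to the whole, so a rise in 1 forces a fall elsewhere and the p-values are not independent. The rows were also chosen with results of these data known, which limits these p-values. Zm00001d030855 made up 13.6% ± 3.08 of these reads in the mutants (SD, n = 6) and 8.81% ± 1.39 in B73 (SD, n = 3), with an exact permutation p of 0.0476. Zm00001d019155 made up 2.63% ± 0.782 in the mutants and 4.09% ± 0.822 in B73, with an exact permutation p of 0.0238. Zm00001d048817 made up 4.73% ± 0.937 in the mutants and 6.64% ± 0.984 in B73, with an exact permutation p of 0.0357. For these 3 rows and for Zm00001d048850, at 6.23% ± 1.08 in the mutants and 4.49% ± 0.573 in B73, the two-sided p adjusted over the 8 shares was 0.119, so no share passed. Each of the 8 shares overlapped between the mutants and B73. For Zm00001d030855 and Zm00001d019155 the overlap came through thk1-iso17 replicate 3 alone, at 7.71% and 4.13%. The other mutant libraries lay at 13.5% to 16.2% and 1.86% to 2.59%, against 7.25% to 9.91% and 3.14% to 4.64% in B73. For Zm00001d048817 and Zm00001d048850 the overlap came through thk1-iso15 replicate 1 alone, at 5.92% and 4.39%.

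Ratios of 2 rows within a library set the members against each other directly. They were examined after the values were seen and are given as a description. Of the 28 possible ratios, 6 (21.4%) had all 6 mutant libraries on 1 side of all 3 B73 libraries. Among all pairs of genes with at least 100 CPM in B73 the share was 27.8%, so the count for the alpha zein rows is not above that of other abundant genes.

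The widest of the 6 gaps lay between Zm00001d048817 and Zm00001d030855. The count of Zm00001d048817 over that of Zm00001d030855 was 0.380, 0.395 and 0.287 in the thk1-iso15 libraries, 0.340, 0.305 and 0.414 in thk1-iso17, against 0.783, 0.771 and 0.713 in B73. Relative to B73 the geometric mean of this ratio was 0.464 in each allele. Zm00001d049243 over Zm00001d030855 was 1.79, 1.91 and 1.42 in the thk1-iso15 libraries, 2.19, 1.47 and 2.63 in thk1-iso17, against 3.54, 3.34 and 2.97 in B73. Both ratios were lower in every mutant library than in every B73 library.

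For another of the 6, the count of Zm00001d019155 over that of Zm00001d019156 was 0.0876, 0.0711 and 0.0636 in the thk1-iso15 libraries, 0.0577, 0.0652 and 0.0904 in thk1-iso17, against 0.118, 0.115 and 0.129 in B73. Zm00001d048850 over Zm00001d019155 ranged from 1.69 to 3.41 in the mutants and from 0.861 to 1.48 in B73. The other 2 gaps were narrow. Zm00001d048817 over Zm00001d049243 ranged from 0.155 to 0.212 in the mutants and from 0.221 to 0.240 in B73, and Zm00001d048809 over Zm00001d048817 ranged from 2.18 to 3.64 in the mutants and from 1.85 to 2.16 in B73. Reads counted as not uniquely aligned are missing from these rows, and the part of that loss in the ratios was not tested.

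**Figure D4:**
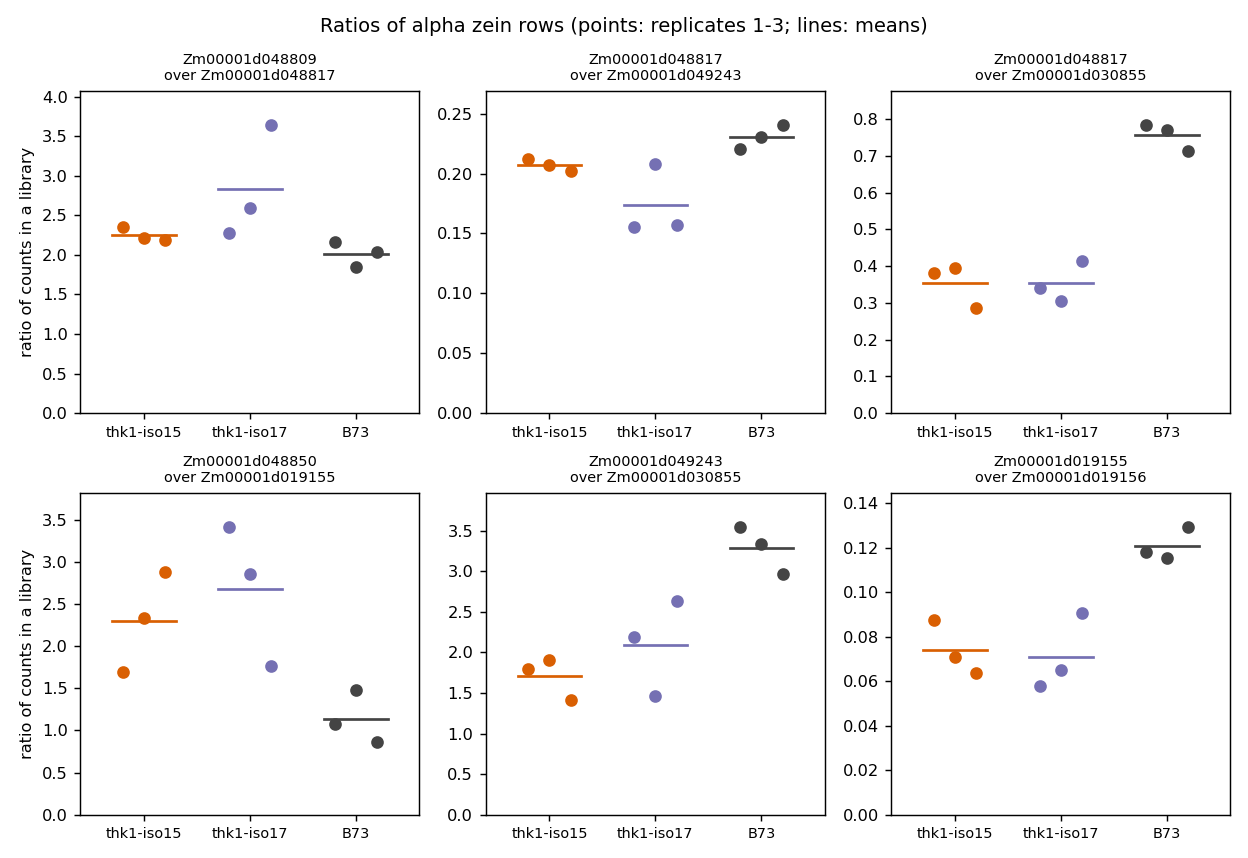
Each panel gives the ratio of the counts of 2 alpha zein rows in every library of thk1-iso15, thk1-iso17 and B73, with lines at the group means, for the 6 of 28 ratios in which the mutant libraries do not overlap B73. Zm00001d048817 over Zm00001d030855 lies between 0.287 and 0.414 in the 6 mutant libraries and between 0.713 and 0.783 in B73.

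Across the 9 libraries the rows kept company to differing degrees. Over log2 TMM-scaled CPM, Pearson's r was 0.99 between Zm00001d048817 and Zm00001d049243, 0.97 between Zm00001d048809 and Zm00001d048817, and 0.95 between Zm00001d048809 and Zm00001d049243. It was lowest, at 0.29, between Zm00001d019155 and Zm00001d030855. With each group's mean removed, the values differed. The lowest was then 0.16, between Zm00001d049243 and Zm00001d019155, and Zm00001d048817 and Zm00001d030855 had 0.98, against 0.72 with the group differences kept. These values describe 9 libraries that share their depth, scaling and genotype groups, and no p is given.

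Another 927 genes outside the 8 rows had at least 100 CPM in B73. Of these, Zm00001d048852 had the highest Pearson's r with the summed level of the 8 rows, at 0.95. Its Spearman's rho over the 9 libraries was 0.92. It averaged 11064 ± 6436 CPM in thk1-iso15, 7197 ± 1793 CPM in thk1-iso17 and 12594 ± 2616 CPM in B73 (SD, n = 3 each). Zm00001d048810 was next by Pearson's r, at 0.94, and had the higher rho of the 2, at 0.98. It averaged 262 ± 93.7 CPM in thk1-iso15, 235 ± 86.6 CPM in thk1-iso17 and 404 ± 102 CPM in B73 (SD, n = 3 each). Both were picked for this likeness, 8 of the 927 genes had an r over 0.9, and both identifiers are close in number to members of the 8 rows. Neither was matched to an annotation here, so whether they are themselves alpha zeins was not tested.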

How the data were processed

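Each library was deposited as raw counts per gene identifier, followed by 5 summary lines. According to the submitters' processing notes, B73 RefGen_v4 was the build and HTSeq 0.11.1, HISAT2 2.1.0, StringTie 1.3.6 and SAMtools 1.9 were used. How they were set, which annotation was counted and whether strand was used is not given in the sources used here. The summary lines were left out of library sizes and fits, and genes took 52.9% to 66.5% of entries. The RefSeq gene table of Zm-B73-REFERENCE-NAM-5.0 named 0 of 44146 nuclear gene models, so the fixed lists of other zeins, zein regulators and cell type markers were not analysed here and no sequence is printed. The members and lists were chosen with earlier results of these data known.

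Counts were fitted in R 4.3.3 with edgeR 4.0.16 (filterByExpr, TMM factors, glmQLFit and glmQLFTest, 3 groups, all 9 libraries), after the script was tested on simulated data. The threshold was 0.05 after Benjamini-Hochberg adjustment over 23529 genes. SE is the log2 fold change over the square root of F. Shares within the members were compared by two-sided exact permutation tests, 6 mutant against 3 B73 libraries, with 0.0119 as the smallest possible p. Alternatives were other scalings, filters, DESeq2 1.42.0, voom in limma 3.58.1, only the groups compared, a replicate block and leaving out each library. All listed rows are named, and 2 others by likeness. No replicates agreed within sampling noise (chi-square per degree of freedom 40.7 or more).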

Additional observations from a re-analysis of the deposited data

Results flagged for a closer look

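The entries not uniquely aligned made up 27.0% of thk1-iso15 replicate 3, above the highest B73 library at 22.6%. The entries not aligned made up 8.27% of thk1-iso17 replicate 3, above the highest B73 library at 2.54%. Both are summary lines outside the gene rows. Reads shared by near-identical alpha zein copies would be counted in the first of these lines, and how many of them come from alpha zeins was not tested. No alpha zein row differed between the alleles by the direct test.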

How the results depend on the processing

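Zm00001d019155 stayed lower under every alternative run in thk1-iso17 against B73 and in both alleles against B73. Percentages in parentheses here are the share of all genes called lower in the same fits, for DESeq2 of the genes with an adjusted p. Rows called lower in thk1-iso17 were 2 when only the groups compared were fitted (6.12%). They were 1 to 4 over the fits that left out 1 library (1.79% to 7.45%). In both alleles they were 2 under total gene counts (2.84%) and 1 to 5 over the fits without 1 library (4.78% to 12.0%). In thk1-iso15 the count was 1 under DESeq2 (8.78%), voom (5.72%), no filter (4.49%), only the groups compared (7.58%) and the replicate block (7.51%). Over the fits without 1 library the count in thk1-iso15 was 0 to 1 (2.41% to 8.14%). The TMM-scaled sum, chosen after seeing the data, differed from B73 by -0.96 in thk1-iso17 and -0.68 in both alleles.

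Signs turned only in values that had not passed. Under total gene counts Zm00001d048808 was 0.0372 in thk1-iso15, Zm00001d048850 was 0.0101 in thk1-iso17 and 0.17 in both alleles, and Zm00001d030855 was 0.28 in both alleles. This scaling moved the median of all genes by 0.26, 0.41 and 0.33 in thk1-iso15, thk1-iso17 and both alleles. Genes higher and lower were then 3769 and 560, against 2038 and 1604 by TMM, in thk1-iso15, 5717 and 336 against 1873 and 1479 in thk1-iso17, and 6002 and 669 against 2586 and 2357 in both alleles. In thk1-iso15, Zm00001d048850 was -0.0765 by voom and -0.00895 with the block, and Zm00001d030855 was 0.0118 in both alleles with the block. Over fits without 1 library, thk1-iso15 against B73 gave -0.71 to 0.11 for Zm00001d048808, -0.54 to 0.42 for Zm00001d048850, -0.75 to 0.0469 for Zm00001d019156 and -0.0603 to 0.68 for Zm00001d030855. Both alleles gave -0.47 to 0.12 for Zm00001d048850 and -0.31 to 0.31 for Zm00001d030855. thk1-iso17 against thk1-iso15 gave -0.81 to 0.10 for Zm00001d048808 and -0.82 to 0.13 for Zm00001d048850. The share of Zm00001d019156 differed by -1.01 to 5.04 points. The cause was not tested.

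Genes called over the fits without 1 library were 1440 to 4386 in thk1-iso15, 1176 to 3946 in thk1-iso17, 2464 to 5876 in both alleles and 21 to 72 between the alleles. Between the alleles, 26 genes became 197 by DESeq2, 75 with no filter and 17 with only the groups compared; in thk1-iso17, 3352 became 6053 under total gene counts. The numbers share no stated batch. Of same-numbered pairs of libraries, 4 of 9 deviated together at r over 0.1 (-0.15 to 0.29). Of pairs with other numbers, 5 of 18 did (-0.30 to 0.17). Of the 9 libraries, 6 were best correlated with their own number. The replicate block gave 1, 4, 4 and 0 called rows in thk1-iso15, thk1-iso17, both alleles and between the alleles. Of all genes tested with the block, 7.51%, 7.43% and 11.2% were lower in the comparisons with B73, and 33 of 23529 differed between the alleles.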
